A study of Mus musculus with 10 samples.

Results

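The homeodomain interacting protein kinases Hipk1, Hipk2, Hipk3 and Hipk4 were measured in cardiac tissue of male mice by 10 probes out of the 56605 probes on the array that are not controls. These are all the probes whose gene name in the array files is one of the 4 genes, out of 37074 gene names: 3 for Hipk1, 3 for Hipk2, 2 for Hipk3 and 2 for Hipk4. HIPK2 knockout mice, HIPK2-/-, on the C57BL/6 background gave 5 samples, and they were compared with 5 samples labelled wild type. Per the series description, the knockout allele was made by injecting embryos with CRISPR directed at the second exon of Hipk2, and mice with a frameshifting deletion of 56 bases were crossed to C57BL/6 wild types to expand the colony. The labels name no treatment of either genotype. The sources used here give neither age nor the part of the heart taken. Whether each replicate is a separate mouse is not stated in the labels, so the spread behind each p-value is that between samples and may be technical in part.

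HIPKs are serine/threonine kinases that sit largely in the nucleus and phosphorylate transcription factors and corepressors. HIPK2 is best known for phosphorylating p53 after DNA damage and for acting on CtBP, and its protein is kept low in resting cells by ubiquitin ligases such as Siah1 and Siah2. HIPK1 and HIPK3 are close relatives of HIPK2 with overlapping roles in development, while HIPK4 is the divergent member and is known chiefly from testis and sperm. The comparison asks whether transcripts of the family differ in the heart when Hipk2 carries the deletion.

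No HIPK probe passed the test for a change between knockout and wild-type hearts. A probe entered the fit if 1 genotype or both had it well above background on 4 or more arrays, which 9 of the 10 did. Of these 9, 0 passed (limma, adjusted p under 0.05 over all 30694 probes tested), against 4.44% of all tested probes, 1.69% higher and 2.76% lower in knockout. One of the 9, the Hipk4 probe A_55_P2045414, had an unadjusted p under 0.05 and knockout values that did not overlap the wild-type values; groups did not overlap for 8.5% of all tested probes. Differences between knockout and wild type were above 0 for 4 probes and below 0 for 5, with a median of -0.01 on the log2 scale, where the median of all tested probes was 0.008. The 95% interval of each of the 9 differences lay within a 2-fold change in either direction. Signal below is log2 intensity relative to the 75th percentile of all spots on the same array, so 0 is the brightness of that percentile, and differences are knockout minus wild type on this scale.

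The arrays themselves differed by genotype in brightness. The 75th percentile of spot intensity ranged from 285.8 to 460.5 on knockout arrays, below the 462.1 to 542.3 of wild-type arrays. Between 45.84% and 58.33% of spots were well above background on knockout arrays, against 55.74% to 60.43% on wild-type arrays. No spot was saturated. Slide 1 carried wild-type replicates 1 and 2 only, and slide 2 carried the other 8 arrays, with knockout replicate 1 and wild-type replicates 3 to 5 in its first row and knockout replicates 2 to 5 in its second. All 5 cardiomyocyte markers were detected, with mean log2 signals of 8.27 to 8.76 on knockout arrays and 7.76 to 8.33 on wild-type arrays. The mean signal of 3 atrial markers ranged from -2.75 to 1.57 on knockout arrays and from -3.02 to 4.81 on wild-type arrays, that of 4 fat markers from -5.04 to -2.96 on knockout and from -4.17 to 0.29 on wild-type arrays, and that of 9 macrophage markers from 1.43 to 1.97 on knockout and from 1.94 to 2.21 on wild-type arrays. The mean of 4 endothelial markers was 2.10 to 2.42 on knockout arrays and 2.46 to 2.72 on wild-type arrays, with no overlap, and 1 of the 4 passed, Kdr, a VEGF receptor (-0.80 ± 0.13, limma adjusted p = 0.0161). The mean of 4 fibroblast markers was 1.82 to 2.72 on knockout arrays and 2.29 to 2.70 on wild-type arrays. Of 3 testis markers Prm1 and Prm2 did not pass the filter and Tnp1 did, at a mean of -3.92 in knockout and -3.77 in wild type. Of 3 brain markers Syt1 and Gfap did not pass and Snap25 did, at a mean of 4.10 in knockout and 3.57 in wild type (adjusted p = 0.183). In bulk tissue, fewer cells of a type and less RNA per cell cannot be told apart, and the part of these markers in the values below was not tested.

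Probe sequences decide what each measurement can report about the deletion. The Hipk2 probes shown are the 2 that lie furthest upstream on the genome, and the Hipk1 probe is shown because it had the widest spread among knockout arrays of the 9 probes in the fit. All are written 5′ to 3′ with no base marked, as given in the array files, with positions on mouse build mm9.
Hipk2 A_55_P2091861, chr6:38768232-38768291, minus strand: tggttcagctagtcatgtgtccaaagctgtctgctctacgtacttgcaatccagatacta
Hipk2 A_52_P554845, chr6:38693102-38693161, minus strand: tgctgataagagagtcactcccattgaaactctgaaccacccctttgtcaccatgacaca
Hipk1 A_52_P235929, chr3:103550896-103550955, minus strand: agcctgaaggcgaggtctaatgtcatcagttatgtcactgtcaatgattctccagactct
Each probe is 60 bases long. The longest run of bases that any of the 10 probes shares with the 56 deleted bases is 6, so none of them reads whether the deleted bases are present, and their signal checks no genotype label.

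The 2 Hipk4 probes overlap by 41 bases, the second starting 19 bases after the first, and their ends are shown because one gave signal and the other did not. Capitals mark the 19 bases of each that are absent from its partner.
Hipk4 A_52_P124526, chr7:28315977-28316036, plus strand, first 30 bases: CTGAACCTACAGATTATTCttacagaaaaa
Hipk4 A_55_P2045414, chr7:28315996-28316055, plus strand, last 30 bases: attcccctgccCCTGGCACATGCCTGTATC
Among the 56595 other probes on the array, at most 2 shared 15 or more bases in a row with any HIPK probe. A_55_P2045414 shared such a run with 1 probe, for Csnk2a1, on the opposite strand, and A_52_P124526 with none. Hipk2 A_55_P2091858 shared one on the same strand with 1 probe, for 4933440N22Rik. Hipk1 A_55_P2831766 did so with 2, 1 of them for Ncapd2. Hipk2 A_55_P2091861 shared one with 1 probe, for Map3k6, on the opposite strand. Any part of these runs in the signal was not tested. Exon and UTR annotation of mm9 was not used here.

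Hipk2, the targeted gene, had transcript signal in both genotypes at each of its 3 probes. These span 120195 bases of chromosome 6 and were well above background on all 10 arrays. The most upstream probe, A_55_P2091861, which starts at base 1413 of the transcript the array lists for it, read -1.01, -0.93, -1.24, -0.82 and -1.02 in knockout replicates 1 to 5, against -1.04, -0.998, -1.15, -1.18 and -1.23 in wild-type replicates 1 to 5. The knockout values ran on both sides of the wild-type values. The genotypes differed by 0.11 ± 0.10 (SE; 95% interval -0.10 to 0.32; limma, adjusted p = 0.473).

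The middle Hipk2 probe, A_52_P554845, is listed at base 1905 of another Hipk2 transcript and read -2.26, -2.31, -2.37, -2.49 and -2.28 in knockout samples, against -2.17, -2.18, -2.43, -2.46 and -2.42 in wild-type samples. Both wild-type arrays of slide 1 were above every knockout array, and the 3 wild-type arrays of slide 2 lay low in the knockout range. The difference was -0.01 ± 0.09 (interval -0.21 to 0.19, adjusted p = 0.96), and its sign turned within slide 2, where it was 0.095. The third probe, A_55_P2091858, at chr6:38648097-38648156 on the minus strand and base 3941 of the same transcript as the middle probe, read 1.50, 1.88, 1.78, 1.30 and 1.42 in knockout samples, against 1.31, 1.96, 1.68, 1.55 and 1.18 in wild-type samples. These groups overlapped almost completely, with wild-type samples both the highest and the lowest of the 10. The difference was 0.04 ± 0.17 (interval -0.33 to 0.40, adjusted p = 0.903). Leaving out single arrays moved it between -0.05 and 0.146. Hipk2 transcript loss of 2-fold or more lies outside the interval of each of the 3 probes, and HIPK2 protein was not measured.

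**Figure D1:**
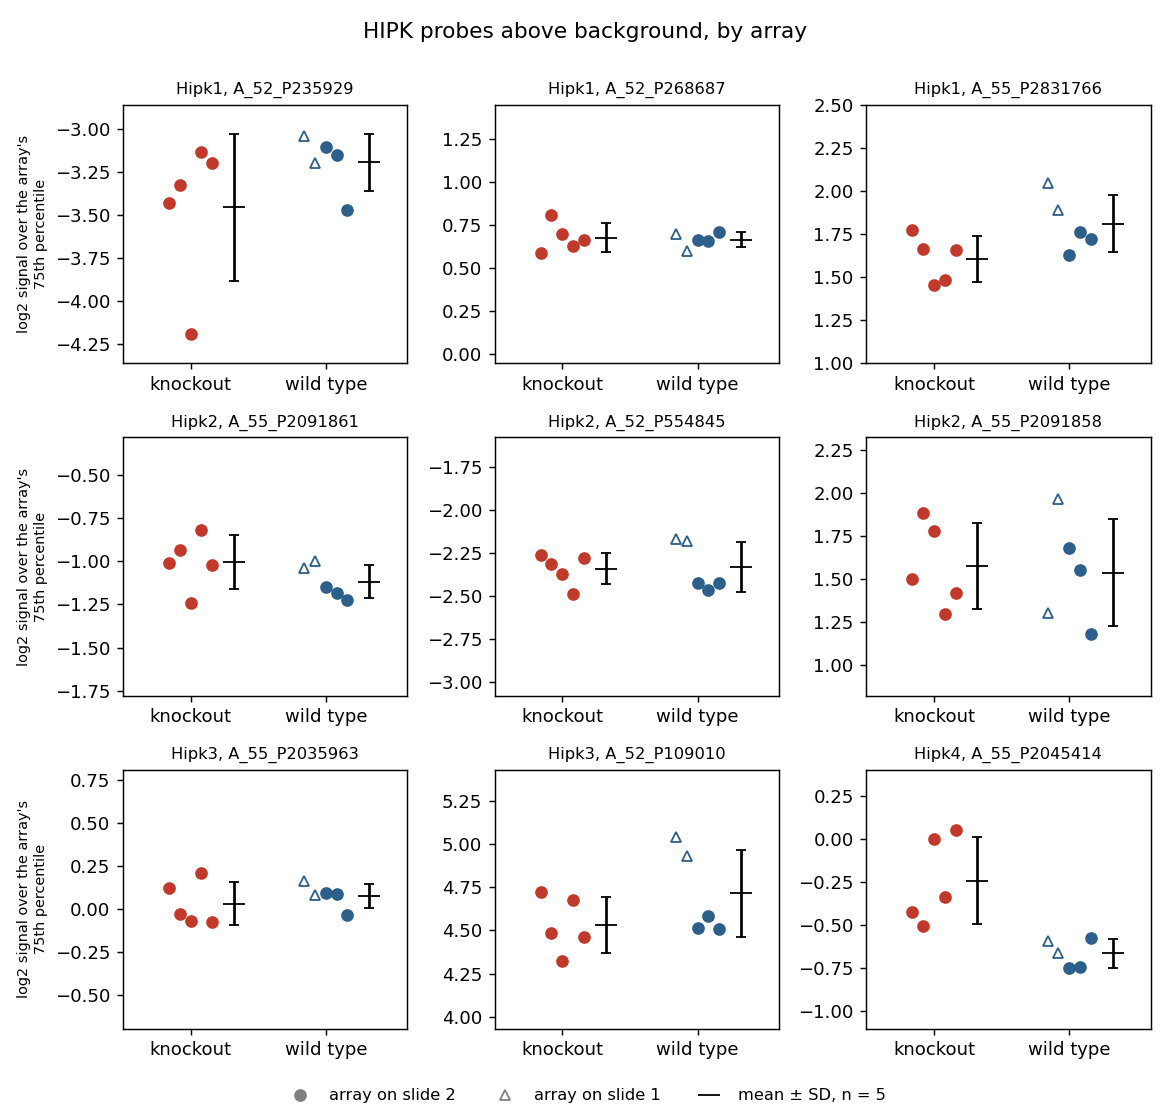
Log2 signal relative to the 75th percentile of the array for the 9 HIPK probes above background, one panel a probe, with knockout arrays (red) left of wild-type arrays (blue), open triangles for the 2 arrays of slide 1, and bars for mean ± SD (n = 5). Every panel spans the same log2 range; the groups overlap for 8 probes and do not for Hipk4 A_55_P2045414.

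Hipk1, the relative of Hipk2 with which it shares many functions in the mouse embryo, was measured at 3 places on chromosome 3. The probe at base 3058 of its listed transcript, A_52_P235929, was dim and read -3.43, -3.32, -4.19, -3.14 and -3.20 in knockout samples, against -3.04, -3.20, -3.10, -3.15 and -3.47 in wild-type samples. Knockout replicate 3 stood apart below all other samples and was the one array on which this probe was not well above background. The difference was -0.26 ± 0.19 (interval -0.67 to 0.15, adjusted p = 0.393), and without knockout replicate 3 it was -0.08.

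The Hipk1 probe A_52_P268687, at chr3:103544148-103544207 on the minus strand, had the smallest SE of the 9. It read 0.59, 0.81, 0.70, 0.63 and 0.66 in knockout samples, against 0.70, 0.60, 0.66, 0.66 and 0.71 in wild-type samples. The difference was 0.01 ± 0.07 (interval -0.15 to 0.18, adjusted p = 0.934). The probe closest to the 3′ end, A_55_P2831766, at chr3:103543808-103543867 on the minus strand, read 1.77, 1.66, 1.45, 1.48 and 1.65 in knockout samples, against 2.05, 1.89, 1.63, 1.76 and 1.72 in wild-type samples. The highest values were the 2 wild-type arrays of slide 1, whose mean was 1.97, against 1.70 for the wild-type arrays of slide 2. The difference was -0.21 ± 0.10 (interval -0.43 to 0.02, adjusted p = 0.234) over all arrays and -0.099 within slide 2 (adjusted p = 0.624).

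Hipk3, a kinase that binds and phosphorylates the death receptor adaptor FADD, was measured by 2 probes on chromosome 2. A_55_P2035963, at chr2:104269963-104270022 on the minus strand, read 0.12, -0.03, -0.07, 0.21 and -0.08 in knockout samples, against 0.16, 0.08, 0.09, 0.09 and -0.03 in wild-type samples. Its difference was -0.05 ± 0.09 (interval -0.23 to 0.14, adjusted p = 0.764). A_52_P109010, at chr2:104266761-104266820 on the minus strand, read 4.72, 4.49, 4.32, 4.67 and 4.46 in knockout samples, against 5.04, 4.93, 4.51, 4.58 and 4.51 in wild-type samples. Wild-type replicates 1 and 2, both on slide 1, were above all other arrays, and the 3 wild-type arrays of slide 2 lay inside the knockout range. The difference was -0.18 ± 0.13 (interval -0.48 to 0.11, adjusted p = 0.396), and within slide 2 it was -0.004 (adjusted p = 0.988).

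Hipk4 gave the one HIPK measurement in which the genotypes did not overlap, and it missed the threshold. A_55_P2045414 was well above background on all 10 arrays and read -0.42, -0.51, 0.00, -0.34 and 0.05 in knockout samples, against -0.60, -0.66, -0.75, -0.74 and -0.57 in wild-type samples. Every knockout sample was above every wild-type sample, a separation upward that 4.09% of all tested probes showed, and knockout replicates 3 and 5 were the highest. The difference was 0.42 ± 0.12, or 1.34-fold with a 95% interval of 1.11 to 1.61, with an adjusted p = 0.0702 over all probes (limma). A smaller p belonged to 7.285% of the probes tested.

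The Hipk4 difference was similar under the scalings tried, with 0.42 after quantile normalization and 0.42 in the authors' deposited table (adjusted p = 0.0629 and 0.0631). Those 2 gave nearly the same count of calls over the array, 1692 and 1683, and are not separate checks. Unscaled processed intensity of A_55_P2045414 was 283.8, 323.8, 285.3, 254.7 and 458.5 on knockout arrays, against 324.6, 328.6, 274.5, 324.1 and 323.9 on wild-type arrays. With no scaling the median of all probes was -0.41 and the Hipk4 difference -0.001, which is 0.41 above that median. In that fit Hipk1 A_55_P2831766 and Hipk3 A_52_P109010 passed as lower in knockout (-0.63 and -0.61), 2 of the 9 HIPK probes, where 28.8% of all probes passed. They lay -0.21 and -0.19 from the median of all probes. With another background correction, normexp, the Hipk4 difference was 0.345 and passed (adjusted p = 0.0362), 1 of the 9 HIPK probes, where 14.7% of all probes passed. Within the first row of slide 2, the one place where both genotypes were hybridised side by side in a row, knockout replicate 1 read -0.42, against -0.75, -0.74 and -0.57 in wild-type replicates 3 to 5. With slide and row as terms the difference was 0.27 ± 0.22 (adjusted p = 0.646).

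The second Hipk4 probe, A_52_P124526, was not well above background on any of the 10 arrays and did not enter the fit. Its processed intensity was 2.74, 7.03, 7.14, 5.37 and 3.90 on knockout arrays, against 4.23, 3.51, 5.10, 4.52 and 5.10 on wild-type arrays, and no fold is given. The 41 shared bases thus belong to one probe with signal and one without, so what A_55_P2045414 measures was not settled by its neighbour. The cause of the disagreement was not tested.

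**Figure D2:**
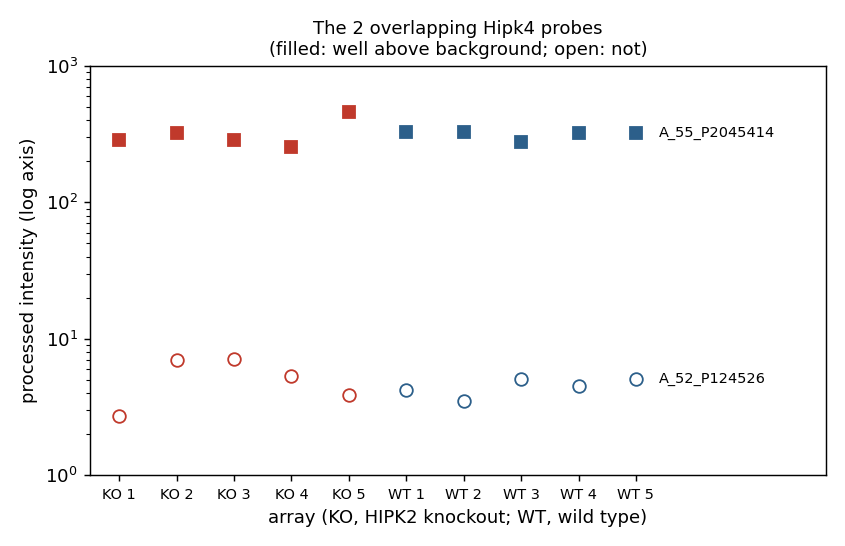
Processed intensity before scaling (log axis) of the 2 overlapping Hipk4 probes on each array, knockout (KO, red) left of wild type (WT, blue), filled where the probe was well above background. A_55_P2045414 lies between 254.7 and 458.5 on knockout arrays and between 274.5 and 328.6 on wild-type arrays, and A_52_P124526 is open on all 10; the brightness of different probes is not comparable.

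**Figure D3:**
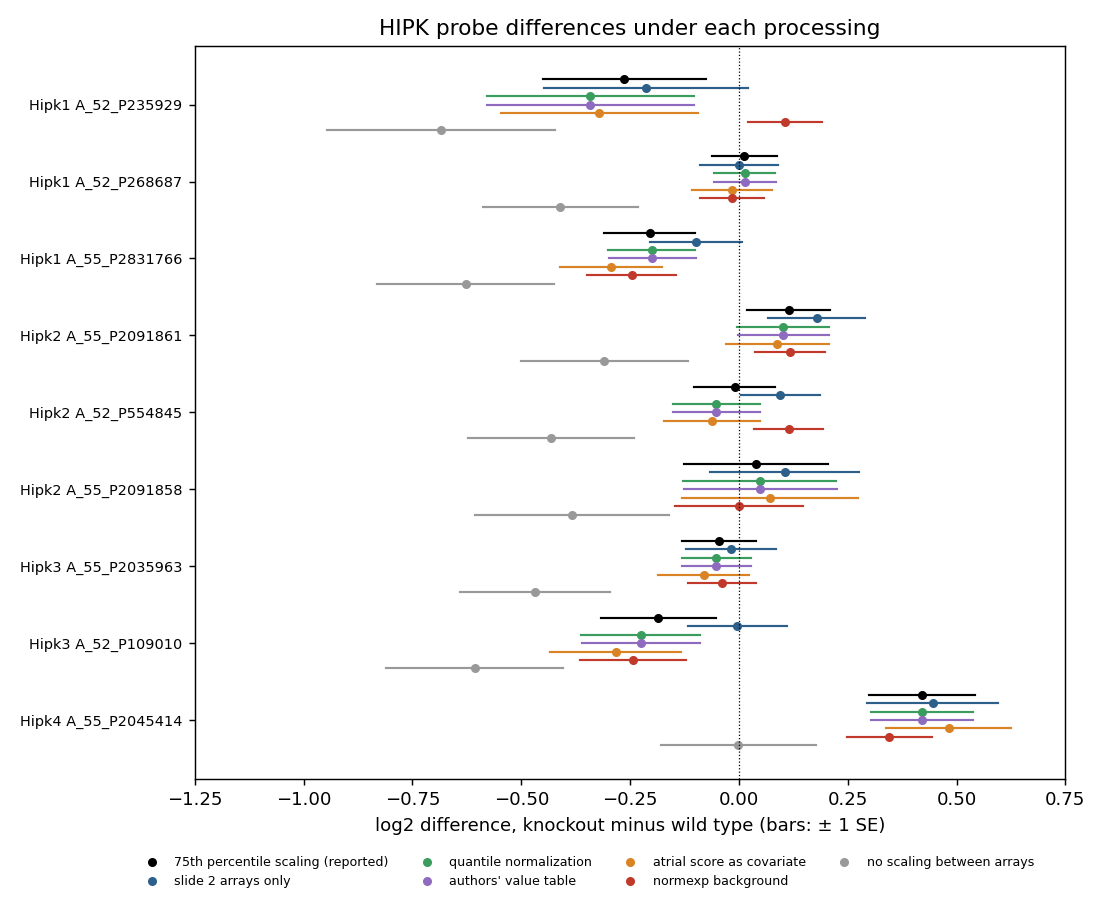
Log2 difference, knockout minus wild type, of the 9 HIPK probes (bars ± 1 SE) under the reported scaling and 6 other ways of processing. Without scaling between arrays (grey) every point lies further left, where the median of all probes was -0.41, and within slide 2 (blue) the Hipk3 probe A_52_P109010 sits at -0.004.

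None of the 7 pairs of probes from one gene passed a test for moving differently between genotypes. For each pair the log2 signal of one probe was subtracted from that of the other on the same array, and the 5 knockout differences were set against the 5 wild-type differences. The smallest p came from Hipk1, A_55_P2831766 minus A_52_P268687, which averaged 0.93 ± 0.17 on the knockout side, against a wild-type mean of 1.15 ± 0.17 (SD, n = 5 each; two-sided exact permutation p = 0.0794, adjusted p = 0.472 over the 7 pairs). The other 6 pairs gave exact p between 0.246 and 0.794, where 0.00794 is the smallest that 5 against 5 allows. Over the 10 arrays, the 2 Hipk3 probes correlated at r = 0.71, while the 3 Hipk2 pairs gave r of 0.003, 0.21 and 0.27 and the 3 Hipk1 pairs -0.17, -0.12 and 0.51. These correlations describe arrays that share scaling and slide.

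Kinases closest to the HIPKs, the DYRK, CLK and PRP4 members of the CMGC group, did not pass either. Of 10 such genes 8 were measured, and 0 rose and 0 fell, with a median difference of -0.13. Over the array 4.44% of probes passed, a share at which a list of 8 can well hold 0. Dyrk2, which like HIPK2 can phosphorylate p53, read -1.15, -1.10, -1.24, -1.26 and -1.17 in knockout samples, against -0.79, -0.86, -0.90, -0.88 and -1.03 in wild-type samples. Every knockout value was lower, with a difference of -0.29 ± 0.08 that missed the threshold (limma adjusted p = 0.0595). Dyrk2 passed with quantile normalization (-0.30, adjusted p = 0.0481) and with the authors' deposited table, not a separate check (-0.30, adjusted p = 0.0482). With normexp Dyrk2 did not pass (-0.164, adjusted p = 0.122). Prpf4b, a kinase of pre-mRNA splicing, read 0.65, 0.83, 0.75, 0.62 and 0.78 in knockout samples, against 1.14, 1.03, 0.96, 0.85 and 0.93 in wild-type samples. The Prpf4b difference was -0.26 ± 0.085 (adjusted p = 0.098). It passed with normexp (-0.276, adjusted p = 0.0397), where 14.7% of all probes passed. A dimmer Prpf4b probe in the fit differed by -0.08. A dimmer probe of Dyrk1b, a DYRK kinase of muscle, chosen after its value was seen, was higher in knockout by 0.56 ± 0.11 (adjusted p = 0.0259), and the brighter one differed by 0.43 ± 0.15 (adjusted p = 0.105).

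Genes listed here as regulators or pathway partners of HIPKs, Nlk among them, were measured for 17 of 17, and 0 rose and 0 fell. Over the array 4.44% of probes passed. Their median difference was -0.03. Siah2, a ubiquitin ligase that directs HIPK2 to degradation, read 0.20, -0.09, -0.26, 0.14 and 0.15 in knockout samples, against 0.53, 0.48, 0.14, 0.57 and 0.28 in wild-type samples. The groups overlapped through wild-type replicate 3, and the difference was -0.37 ± 0.12 (adjusted p = 0.0945). Pml, the scaffold of the nuclear bodies that hold HIPK2, read 2.10, 1.89, 2.25, 2.09 and 1.85 in knockout samples, against 1.96, 1.82, 1.78, 1.67 and 1.78 in wild-type samples, a difference of 0.23 ± 0.10 (adjusted p = 0.165).

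Substrates and partner factors of HIPKs were measured for 20 of 23 genes, and 0 rose and 0 fell, where 4.44% of all probes passed. Their median difference was -0.03. Trp53, which encodes p53, read -1.72, -1.97, -2.21, -2.43 and -2.07 in knockout samples, against -1.93, -1.51, -1.55, -1.52 and -1.66 in wild-type samples. Wild-type replicate 1 fell inside the knockout range, the other 4 above it, and the difference was -0.44 ± 0.14 (adjusted p = 0.0849). The Trp53 difference depended on the processing, with -0.146 under normexp (adjusted p = 0.222) and -0.48 under quantile normalization (adjusted p = 0.0778). Creb1, a factor that HIPK2 phosphorylates, read -0.48, -0.71, -0.67, -0.49 and -0.68 in knockout samples, against -0.37, -0.45, -0.38, -0.45 and -0.36 in wild-type samples. Its groups did not overlap, with a difference of -0.20 ± 0.08 (adjusted p = 0.144). Groups did not overlap for 8.5% of all tested probes. Creb1 had 4 probes in the fit, and those other than the brightest differed by -0.26 to 0.06.

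By brightest probe, genes beside the HIPK genes held the only calls among the 4 lists. The 3 nearest genes on each side of each HIPK gene, by probe position on mm9, came to 24, of which 20 were measured, 1 rose and 1 fell. These 2 calls are 10% of the measured neighbours, against 4.44% of all probes, a share at which a list of 20 can well hold 2. With 1 probe per gene over the array, 1017 of 20608 passed. The median difference of the neighbours was 0.04. Tbxas1, thromboxane A synthase, lies next to Hipk2 on chromosome 6 and read -1.46, -1.09, -1.68, -1.53 and -0.81 in knockout samples, against -0.56, -0.47, -0.70, -0.80 and -0.77 in wild-type samples. All knockout values were lower, the fifth by a small margin, and Tbxas1 fell by 0.66 on the log2 scale (SE 0.16, limma adjusted p = 0.0457). Tbxas1 is known from macrophages and platelets. The mean of the 9 macrophage markers, all detected, was 1.43 to 1.97 on knockout arrays, against 1.94 to 2.21 on wild-type arrays, and its part in the Tbxas1 value was not tested. When single arrays were dropped the call held in 1 of 10 fits (highest adjusted p = 0.103), and within slide 2 the difference was -0.559 (adjusted p = 0.164).

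Cd59a, a membrane inhibitor of complement lysis, is one of the 3 nearest genes on one side of Hipk3 on chromosome 2. It read 4.00, 4.07, 3.81, 4.10 and 4.00 in knockout samples, against 3.79, 3.64, 3.50, 3.48 and 3.47 in wild-type samples, and rose by 0.42 ± 0.09 (adjusted p = 0.0367). The groups did not overlap, with knockout replicate 3 and wild-type replicate 1 nearly touching. A dimmer Cd59a probe, also in the fit, differed by 0.32 ± 0.14 and did not pass (adjusted p = 0.176). When single arrays were dropped the call held in 2 of 10 fits (highest adjusted p = 0.0853), and it held within slide 2, where the difference was 0.51 (adjusted p = 0.042). On slide 2 row and genotype nearly coincide. With slide and row as terms the Cd59a difference was 0.52 (adjusted p = 0.244), in a fit where 0 probes passed over the array. With the atrial marker score as a covariate neither neighbour passed, at 0.345 for Cd59a (adjusted p = 0.15) and -0.661 for Tbxas1 (adjusted p = 0.14). In that fit 78 probes passed over the array. Of the other measured neighbours of Hipk2, Parp12 lies on the same side as Tbxas1 and differed by -0.28 (adjusted p = 0.081). Those on the other side were Klrg2 at 0.42 (0.126), Clec2l at 0.20 (0.47) and Luc7l2 at 0.03 (0.914). These values are by brightest probe. Luc7l2 had 11 probes in the fit, and those other than the brightest ran from -0.35 to 0.27, on both sides of 0. A part of position was not tested. Klrg2 and Clec2l were dim, well above background on 2 and 3 of 5 knockout arrays and on all 5 wild-type arrays. Klrg2 passed with normexp (0.44, adjusted p = 0.0275), where 14.7% of all probes passed. A dim probe of Olfml3, a neighbour of Hipk1 chosen after its value was seen, was lower by 0.72 on the log2 scale in knockout (adjusted p = 0.047), while the brightest Olfml3 probe differed by 0.18 (adjusted p = 0.583).

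**Figure D4:**
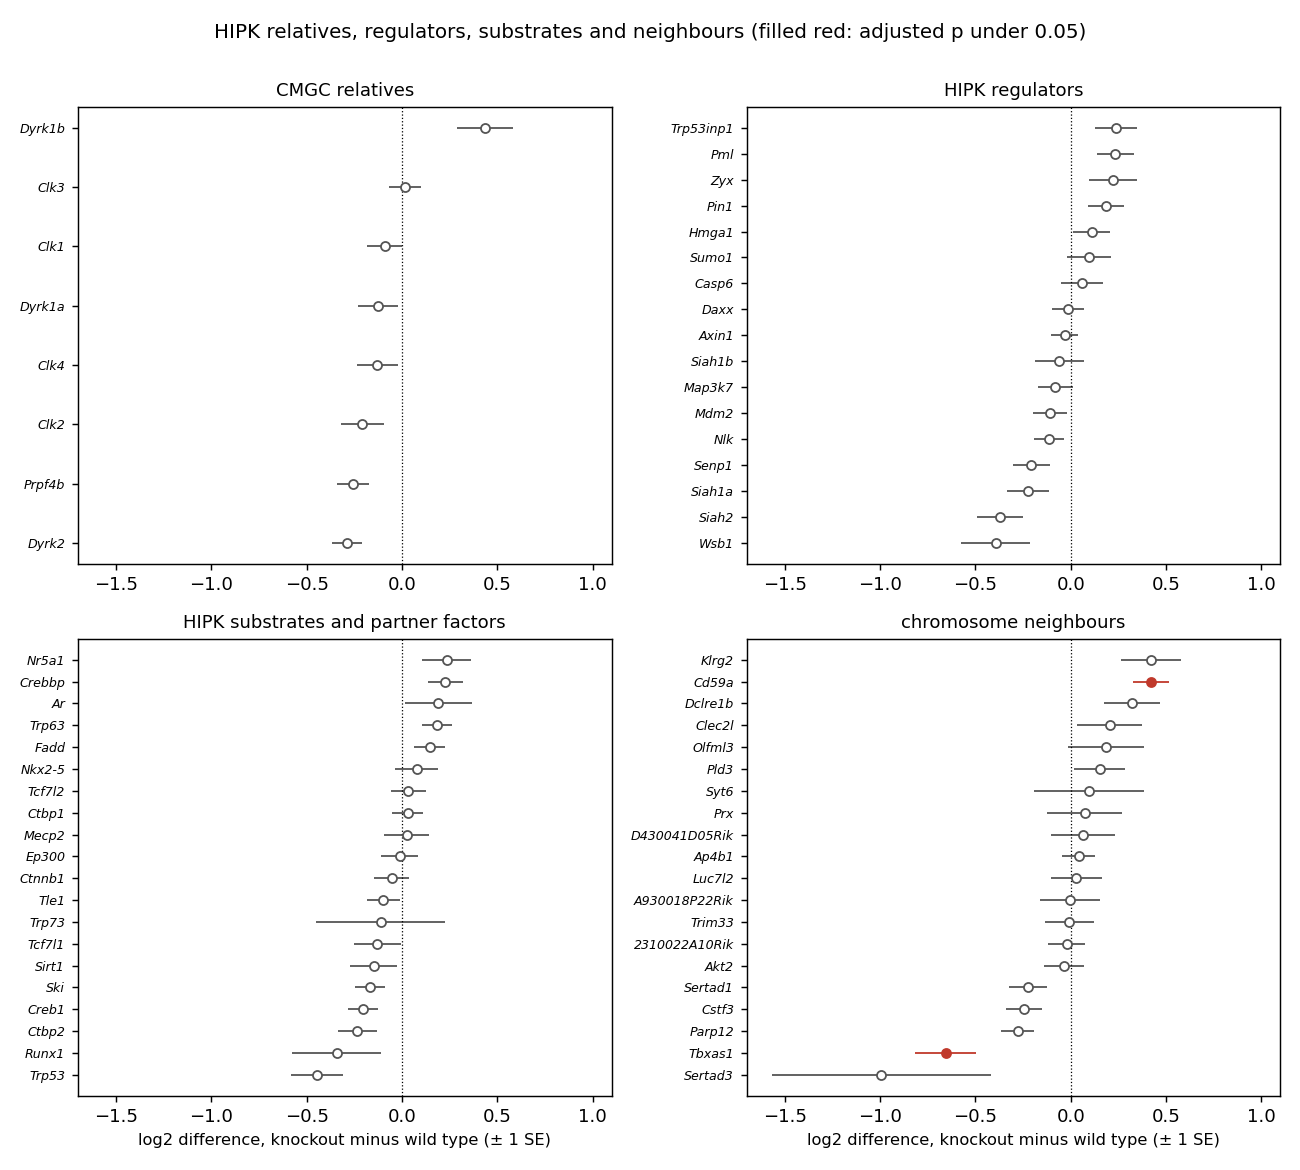
Log2 difference, knockout minus wild type (± 1 SE), of each measured gene in the lists of HIPK relatives, regulators, substrates and partners, and chromosome neighbours; filled red marks adjusted p under 0.05. Tbxas1 at -0.66 and Cd59a at 0.42 are the 2 filled points, and both are neighbours.

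The genes whose signal tracked each HIPK gene most closely over the 10 arrays differed from member to member. Among 14025 named genes, the brightest Hipk1 probe correlated most with Ube2l6, an E2 enzyme of ISG15 conjugation (r = 0.959), Lyve1, a hyaluronan receptor of lymphatic endothelium and some macrophages (0.954), and Yipf5 (0.953). Hipk2 had lower maxima, with Abcb1b, a drug efflux pump, at 0.83, Ankrd26 at 0.818 and Zfp335os at 0.794. Hipk3 tracked Otud4, a deubiquitinase, at 0.99, the GTPase Rab10 at 0.984 and Tada1 at 0.983, and the 3 values were 0.987, 0.953 and 0.934 over the 8 arrays of slide 2. Hipk4 A_55_P2045414 tracked the sialyltransferase St6galnac3 at 0.94, Zfp512b at 0.937 and Bbs5, a basal body protein, at 0.909. These are the highest of 14025 values over 10 arrays that share slide, scaling and genotype, and they are given as descriptions. With normexp the Hipk2 value of Zfp335os was 0.352, the lowest of the 12 under any of the 3 alternatives tried.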

How the data were processed

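RNA of cardiac tissue of male mice, with 5 HIPK2 knockout samples and 5 wild-type samples per the labels, was hybridised to 1-colour Agilent arrays. RNA came from snap-frozen tissue by a mirVana kit and was made into Cy3-labelled cRNA by linear amplification, per the labels' protocols. The deposited array files hold spot intensity, processed per the file headers by Agilent Feature Extraction (10.7.1.1 per the submitters' processing notes), which subtracts background within each array. The authors also deposited a log2 value table, used as an alternative; its columns share a median of 4.737, their own arrays match best (r 0.918 to 0.996), and its centring and background step are not given in the sources used here.

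From the intensity, log2 of the processed signal minus log2 of the array's 75th percentile was taken. Control spots were left out, and the 59305 other spots were averaged into 56605 probes. Probes were kept if well above background on at least 4 of 5 arrays of a genotype (30694). Names came from RefSeq by accession for 32989 probes and otherwise from the files. Fits used limma 3.58.1 (R 4.3.3), without covariates, with Benjamini-Hochberg adjustment over kept probes and a threshold of 0.05. Tested on simulated data for this comparison with 200 of 30694 probes changed, the fit recovered 14.5%, 78% and 93.5% of changes of 0.5, 1 and 2 on the log2 scale, with 6.45%, 1.27% and 5.08% of calls false. The simulated noise was independent between probes and between arrays, while the real arrays share slide and row. The share of false calls in the real data was not estimated. Array number limits the precision. A gene in a list is read by its brightest kept probe. Named are every HIPK probe, list members past the threshold or else the 2 with the smallest p, and the 3 genes most correlated with each HIPK gene's brightest probe. Members and lists were chosen with earlier results of these data known. Same-numbered samples did not deviate together (r of deviations -0.096 to 0.06), so the numbers were not taken as pairs. Alternatives were normexp (offset 50), quantile normalization, the deposited table, no filter, 1 probe per gene, slide 2 alone, slide or replicate number as a block, the atrial score as a covariate and each array left out; no scaling and slide with row were chosen after seeing the data.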

Additional observations from a re-analysis of the deposited data

Results flagged for a closer look

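The dim Hipk1 probe A_52_P235929 read -4.193 in knockout replicate 3, against -3.43 to -3.14 in the other 4 knockout samples. Its gap to the nearest sample was 0.72 of the group's range, above Dixon's critical value of 0.71 for 5 samples. The probe was not well above background on that array. Chance gives such a sample in about 1 of 20 groups, and 34 groups were checked.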

How the results depend on the processing

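No HIPK probe passed in any of the 10 fits that left out an array, with slide 2 alone, with slide, slide and row, or replicate number as a block, with the atrial covariate, with quantile normalization or with the deposited table. With no scaling 2 passed, Hipk1 A_55_P2831766 (-0.628, adjusted p = 0.0365) and Hipk3 A_52_P109010 (-0.607, adjusted p = 0.0401), where 28.8% of all probes passed, and with normexp 1 passed, Hipk4 A_55_P2045414 (0.345, adjusted p = 0.0362), where 14.7% did. No scaling moved the median of all probes to -0.41, and positive differences fell below 0 with it. These were Hipk1 A_52_P268687 (-0.41), Hipk2 A_55_P2091861 (-0.309) and A_55_P2091858 (-0.383), and Hipk4 A_55_P2045414 (-0.001, from 0.421 with scaling). With normexp signs turned for A_52_P235929 (0.106), A_52_P268687 (-0.016) and A_52_P554845 (0.114), and for the pairs of A_52_P235929 with A_52_P268687 (-0.122) and with A_55_P2831766 (-0.352) and of A_55_P2091858 with A_52_P554845 (-0.113). With slide and row they turned for A_52_P268687 (-0.091), A_55_P2831766 (0.067), A_52_P554845 (0.175), A_55_P2035963 (0.073) and A_52_P109010 (0.185). They turned for A_52_P554845 within slide 2 and with slide as a block (0.095 in both), for the Hipk3 pair within slide 2 (0.014) and for A_52_P268687 with the atrial covariate (-0.016). Apart from the shift without scaling, the cause was not tested.

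With arrays left out in turn, A_55_P2091858 gave -0.05 to 0.146, A_52_P268687 -0.021 to 0.035, A_52_P554845 -0.042 to 0.031, A_55_P2045414 0.348 to 0.487, A_55_P2831766 -0.251 to -0.146, A_52_P235929 -0.343 to -0.079, A_55_P2091861 0.066 to 0.173, A_55_P2035963 -0.09 to -0.019 and A_52_P109010 -0.237 to -0.103. The pairs A_52_P268687 with A_52_P235929, A_52_P554845 with A_55_P2091861 and A_52_P109010 with A_55_P2035963 gave 0.086 to 0.367, -0.176 to -0.04 and -0.193 to -0.078. The pairs A_55_P2831766 with A_52_P235929, A_55_P2091858 with A_52_P554845 and A_55_P2091858 with A_55_P2091861 gave -0.088 to 0.168, -0.049 to 0.118 and -0.186 to 0.043.

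Over the array 1364 probes passed, 38% of them higher in knockout. The count was 78 with the atrial covariate (44.9% higher), 220 with no filter (58.2%), 8852 with no scaling (0.452%), 4517 with normexp (75.8%), 239 with a replicate block (25.5%), 522 within slide 2 (31%) and 0 with slide and row, and 302 to 1224 with an array left out. It was 648, 494 and 617 without knockout replicates 1, 2 and 4, and 403, 355 and 302 without wild-type replicates 2, 4 and 5. The HIPK relatives gave 1 call with the deposited table and with quantile normalization (Dyrk2) and 1 with normexp (Prpf4b). The neighbours gave 3 calls with normexp. They gave 0 with the atrial covariate, no filter, the replicate block and slide with row, 1 within slide 2 and with slide as a block, and 0 to 1 with an array left out. The replicate block added no call to HIPK probes and ended those of Tbxas1 (adjusted p = 0.0831) and Cd59a (0.0864).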
